A study of Mus musculus with 6 samples.

Results

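B cells made up 255 of the 41303 quality-passing cells in a single-cell RNA series of cells that were sorted, per the labels, as CD4+ T cells from the spleen and aorta of mice with abdominal aortic aneurysm. A cell was counted as a B cell when it had at least 300 genes and at most 10% mitochondrial unique molecular identifiers (UMIs, each standing for 1 captured RNA molecule), no UMI of Cd3e or Siglech, at least 1 UMI of Cd79a, and at least 1 UMI of Cd79b or Ms4a1. The animals were C57/B6 mice aged 8 to 12 weeks in which the aneurysm was induced with elastase (PPE in the labels), and all of them were killed 14 days after surgery. There were 3 libraries from spleen and 3 from vascular tissue, made with a 10x 5′ kit. Enzymes at 37 °C were used to free cells from the minced aorta, and no enzyme was used on the ground spleens, so an effect of tissue and one of digestion cannot be told apart. All animals carried the elastase injury, and untreated aorta was not analysed here. The labels do not say whether the 3 libraries of a tissue came from separate animals, so the p-values measure the spread between libraries only.

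B cells recognise antigen through the B cell receptor, in which Cd79a and Cd79b are the signalling chains, and present peptides to CD4+ T cells on MHC class II. After help from T cells they can enter germinal centres, where they divide and mutate their receptor genes, or become plasma cells that secrete antibody. In arteries with aneurysm, B cells and plasma cells are known from the outer vessel wall and from lymphoid aggregates around it, while the spleen holds follicular and marginal zone B cells as its largest populations.

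The 6 libraries held between 14836442 and 55483411 UMIs over 27998 genes, and pairs of libraries shared 18 to 136 cell barcodes. The B cells held 89211, 443084 and 418409 UMIs in spleen libraries 1, 2 and 3 and 135669, 73452 and 115392 in vascular libraries 1, 2 and 3. These small sums set the precision of all gene levels below. Median UMIs per B cell were 3864 ± 91.1 in spleen and 3815 ± 480 in vascular libraries (SD, n = 3 each; exact two-sided permutation test, p = 0.8). The median mitochondrial share was 2.999% ± 0.406 in spleen B cells and 2.10% ± 0.0602 in vascular B cells, without overlap (exact permutation p = 0.1, the smallest that 3 against 3 libraries allow). T cells of the same libraries differed in the same way, at 2.10% and 1.32%. The part of this RNA quality difference in the results below was not tested.

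B cell markers that the rule did not use were present in both tissues. At least 1 UMI of Ebf1, a transcription factor that sets B cell identity, was found in 90%, 78.4% and 92.9% of the spleen B cells and in 85.7%, 100% and 68.8% of the vascular B cells, against at most 0.0917% of T cells in any library. Fcer2a, the low-affinity IgE receptor of follicular B cells, was seen in 43.8% to 53.6% of the B cells of every library. Cd4 was found in 5%, 1.14% and 2.38% of the spleen B cells and in none of the 63 vascular ones, which allows up to 4.76% of cells with a UMI (not of cells expressing the gene, since many T cells lack a Cd4 UMI too), whereas it was seen in 55.2% to 64.9% of T cells. The genes with the highest ratio of B cell to T cell level, given as a description because the cells were chosen by B cell markers, included Fcer2a, Ebf1, Fcrla, Mzb1, Scd1, Vpreb3 and Jchain, followed by Fcmr, Cr2, Bcar3, Hs3st1, Ly6d, Blk and Pax5. Pax5 is a further transcription factor of B cell identity, and Blk is a kinase of the receptor pathway. The median B cell held 9.5 to 16 UMIs of Cd79a depending on the library, and only 2 members, both from spleen, sat at the minimum of 1.

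B cells were a smaller share of the sorted vascular cells than of the sorted spleen cells. They numbered 20 of 2309, 88 of 9380 and 84 of 9580 cells in spleen libraries 1, 2 and 3, which is 0.866% (95% Clopper-Pearson interval 0.530 to 1.33), 0.938% (0.753 to 1.15) and 0.877% (0.700 to 1.08). In the vascular libraries they numbered 28 of 8660, 19 of 4962 and 16 of 6412 cells, or 0.323% (0.215 to 0.467), 0.383% (0.231 to 0.597) and 0.250% (0.143 to 0.405). The lowest spleen library thus lay above the highest vascular one. The means were 0.894% ± 0.0389 and 0.319% ± 0.0668 (SD, n = 3 each), a difference of -0.575 percentage points that reached the smallest p the design allows (exact two-sided permutation test, p = 0.1). The sort for CD4 sets these shares, so they describe what passed the gate and not the B cell content of the tissues.

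**Figure D1:**
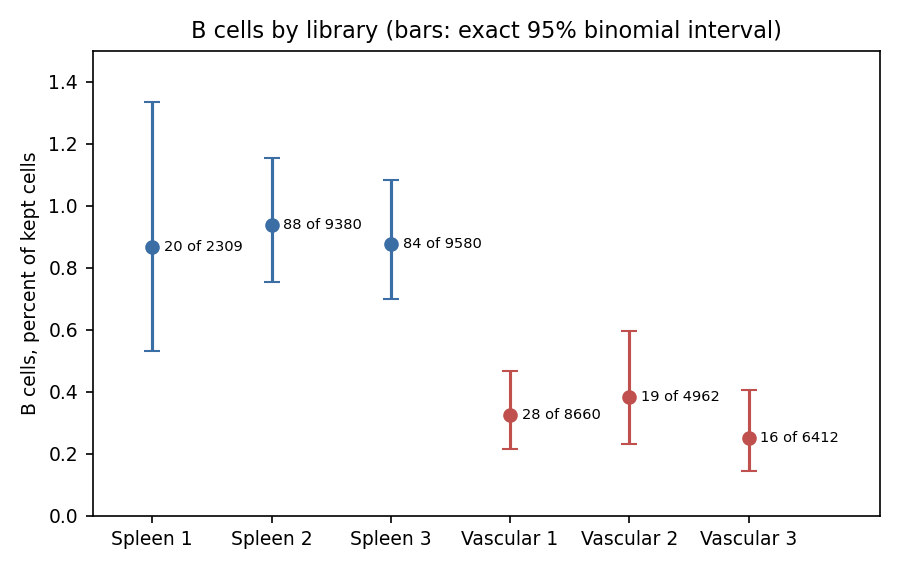
B cells as a percentage of the quality-passing cells of each of the 6 libraries (y axis), with exact 95% binomial intervals as bars. The 3 spleen libraries sit between 0.866% and 0.938% and the 3 vascular libraries between 0.250% and 0.383%, with no overlap of the points.

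Few cells lay just outside the rule, apart from those that also carried T cell RNA. Cells with Cd79a but neither Cd79b nor Ms4a1 numbered 1, 1 and 2 in the spleen and 0, 0 and 2 in the vascular libraries. Cells with the B cell markers together with Cd3e, which were left out, numbered 5, 60 and 47 in the spleen and 14, 15 and 14 in the vascular libraries. Summed T cell markers in the B cells stood at 4.77% ± 0.350 of their level in T cells of the same library in spleen and at 3.28% ± 1.75 in vascular tissue (SD, n = 3 each), with overlap between the tissues (exact permutation p = 0.4). Of other cell types, neutrophil markers were at 0 in all 6 libraries, and genes with no UMI in any B cell made up 5 of 12 macrophage markers (C1qa and Csf1r among them), 5 of 9 conventional dendritic cell markers (Itgax among them), 3 of 12 plasmacytoid dendritic cell markers (Klk1 among them) and 9 of 10 vessel wall markers (all but Pecam1). Apoe had the most UMIs of the macrophage list, with 379 in spleen and 95 in vascular B cells, and was seen in 40% to 52.6% of the B cells of each library against 3.10% to 5.99% of T cells. C1qb and C1qc together had no more than a few UMIs per tissue, and Irf8 led the plasmacytoid list with 450 and 89 UMIs. The summed macrophage list ranged from 397 to 661 CPM (UMIs per 1000000 UMIs of the B cells) in spleen and from 340 to 1257 CPM in vascular B cells, and the plasmacytoid list from 731 to 1143 CPM and from 871 to 2505 CPM. Both lists hold Ly6c2, of which 224 of the 231 UMIs in vascular B cells came from the 7 plasma-like cells described next. The vessel wall list summed to 22.4 to 70.0 CPM in spleen and 29.5 to 81.7 CPM in vascular B cells.

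Among the B cells, cells resembling plasma cells were most numerous in vascular libraries 1 and 3. They were set apart, after the data had been seen and therefore with no test, by at least 100 UMIs of Jchain, the chain that joins IgM and IgA antibodies into polymers. Spleen libraries 1, 2 and 3 held 1, 1 and 0 of them, and vascular libraries 1, 2 and 3 held 3, 0 and 4. The threshold cut through a wide gap, since the lowest cell inside had 218 Jchain UMIs and the highest cell outside had 58. These few cells were large: they made up 31.0% and 52.8% of all B cell UMIs in vascular libraries 1 and 3, against 13.8%, 1.05% and 0 in the spleen libraries. The 7 vascular cells had a median of 12751 UMIs (range 8151 to 21193), of which Jchain alone took between 4.42% and 28.2%. All 7 contained Mzb1 and Xbp1, which serve antibody assembly and secretion, and Sdc1, the plasma cell surface proteoglycan CD138. Prdm1, the transcription factor that drives plasma cell differentiation, was seen in 6 of them. Ms4a1 was seen in 1 of 7, and the class II gene H2-Aa, present in 56 of the 56 remaining vascular B cells, in 4 of 7. Both spleen cells of this kind had Mzb1 and Xbp1 as well, with 218 and 985 Jchain UMIs, and Sdc1 and Prdm1 were each seen in 1 of them. Over all kept cells, those with at least 100 Jchain UMIs numbered 1, 14 and 7 in spleen and 8, 5 and 11 in vascular libraries, so spleen library 2 held the most. The 37 of these that lay outside the members were spread over 5 libraries (0, 13 and 7 in spleen and 5, 5 and 7 in vascular libraries), and most of them carried Cd3e.

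A further 3 genes stood out in the vascular plasma-like cells by their UMI counts, and they too were picked after their values were seen. Slpi, a secreted inhibitor of serine proteases, had 1477 UMIs in 5 of the 7 cells, with 53.4% of them in 1 cell. Cxcl10, a chemokine for activated T cells, had 162 UMIs in 5 cells, again with 50.6% in 1 cell. Ccr10, a chemokine receptor of plasma cells that home to mucosal and skin sites, had 42 UMIs in 5 cells, 27 of them in 1 cell. The 56 remaining vascular B cells held no UMI of Slpi, Cxcl10 or Ccr10. In the spleen, the 2 plasma-like cells had 33 UMIs of Slpi, all in 1 cell, and none of Cxcl10 or Ccr10.

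Cells resembling germinal centre B cells were found in spleen libraries 2 and 3 only. They were defined, again after seeing the data, as cells outside the plasma-like group with UMIs of at least 3 of 8 germinal centre genes. They numbered 0, 11 and 11 in spleen libraries 1, 2 and 3 and 0 in each vascular library. A plasma-like cell of vascular library 3, with 932 Jchain UMIs, also had UMIs of 3 of these genes and was not counted here. A count of 0 allows a share of up to 15% in spleen library 1 and up to 10.7%, 15.8% and 18.8% in vascular libraries 1, 2 and 3, so shares like the 12.5% and 13.1% of spleen libraries 2 and 3 could be missed in single libraries. Over all 63 vascular B cells the limit is 4.76%, counting error only. Among the 22 cells, the receptor S1pr2 had 66 UMIs in 19 cells, the transcription factor Mef2b 100 UMIs in 21 and Rgs13 94 UMIs in 17. These 3 genes are part of the definition, so their counts describe the chosen cells and give no separate evidence of their identity. Mki67, a marker of dividing cells, was seen in 6 of the 22 cells (27.3%) and in 3 of the 168 remaining spleen B cells. The 22 cells had a median of 7798 UMIs against 3692.5 in the 168 remaining spleen B cells, so these Mki67 counts compare cells of unequal depth. The 22 cells contributed 24.5% and 28.9% of the B cell UMIs in spleen libraries 2 and 3. Jchain was present in 19 of them at low counts, and Bcl6, the germinal centre regulator, had a single UMI.

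**Figure D2:**
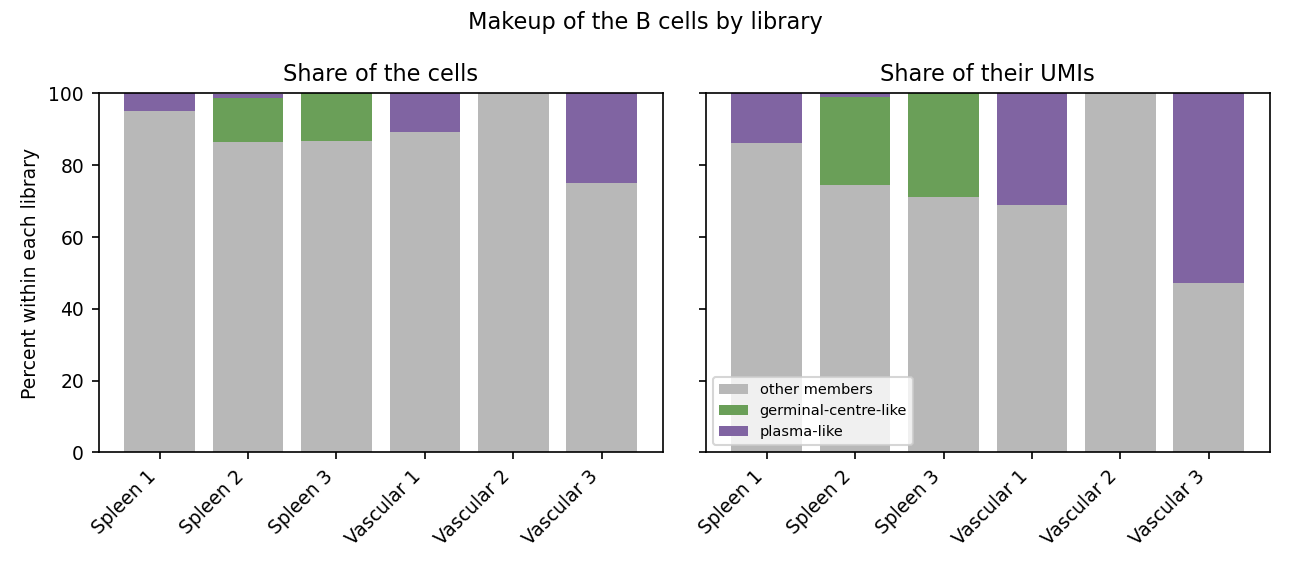
Makeup of the B cells in each library, as a percentage of cells (left) and of B cell UMIs (right), split into plasma-like, germinal-centre-like and other members. Plasma-like cells are 4 of 16 B cells but 52.8% of the UMIs in vascular library 3, and germinal-centre-like cells appear in spleen libraries 2 and 3 only.

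When UMIs were summed over all B cells of a library and compared between tissues, several chaperone genes, led by Hspa1a and Hspa1b, were higher in vascular B cells, and a receptor for the survival factor BAFF, the cytokine gene Ltb and the Notch target Dtx1 were lower. Of 1608 genes tested, 18 passed an adjusted p of 0.05 (1.12%) in edgeR's quasi-likelihood test with Benjamini-Hochberg adjustment, 15 higher (0.933%) and 3 lower (0.187%) in vascular B cells. Levels that did not overlap between the tissues were found for 18.2% of the genes tested, of which 8.96 percentage points were above and 9.27 below spleen. The median difference of all genes was 0.01 on the log2 scale. The number of calls moved strongly with single libraries: leaving out vascular library 2, which held no plasma-like cell, gave 222, leaving out spleen library 1 gave 31 and leaving out vascular library 3 gave 9, while leaving out spleen library 2, spleen library 3 or vascular library 1 gave 2, 2 and 3. Because the plasma-like and germinal-centre-like cells weigh unequally on these sums, a second fit, added after the data had been seen, used only the 168 spleen and 56 vascular B cells without them, called the remaining B cells. It tested 1009 genes and called 44 (4.36%), 32 higher (3.17%) and 12 lower (1.19%), with 24.4% of genes not overlapping. Of the 18 genes called over all B cells, 11 could be tested in the remaining B cells and 10 of them passed again. In the remaining B cells, summed T cell markers were 5.06% of the T cell level in spleen and 2.26% in vascular libraries, without overlap (exact permutation p = 0.1), and the part of this in the results was not tested.

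**Figure D3:**
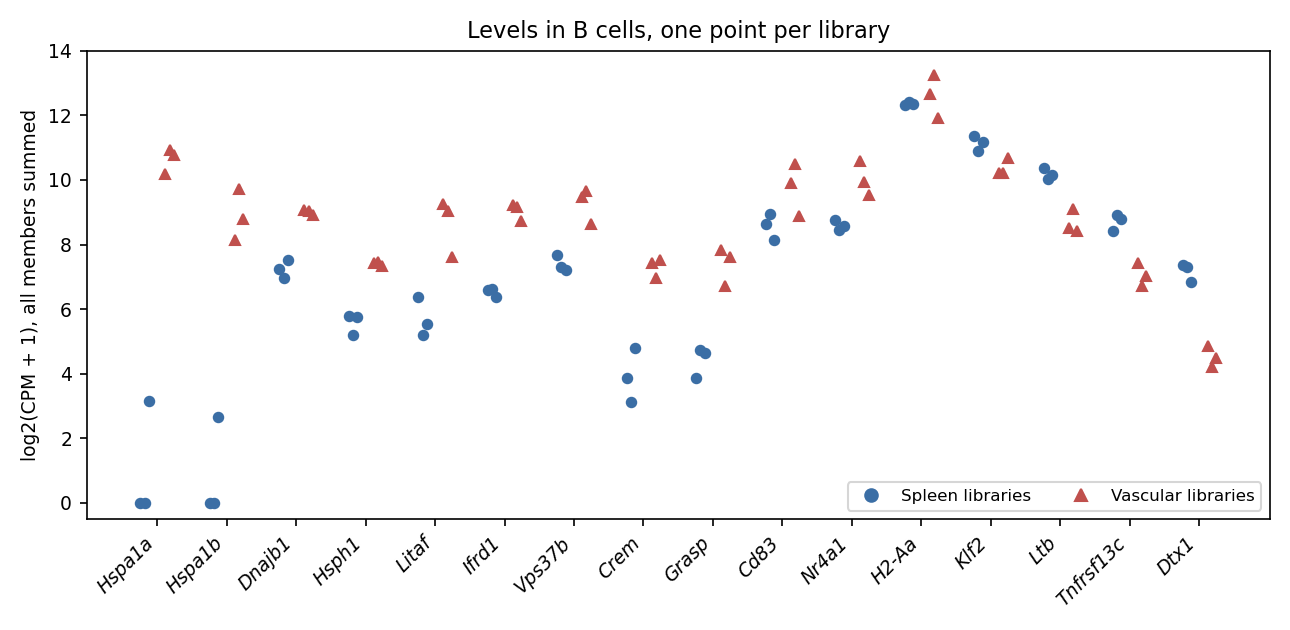
Levels of selected genes in the summed B cells of each library on a log2(CPM + 1) scale (y axis), with circles for the 3 spleen and triangles for the 3 vascular libraries. Hspa1a and Hspa1b lie near the bottom of the scale in all spleen libraries and far above it in all vascular libraries, while Tnfrsf13c, Ltb and Dtx1 lie lower in the vascular libraries.

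The largest difference was in Hspa1a and Hspa1b, a pair of genes that encode the inducible chaperone HSP70. Hspa1a lies at chr17:34969190-34972156 and Hspa1b at chr17:34956436-34959238, both on the minus strand of GRCm38. Their promoters show how alike the copies are, and both hold a match to a short form, with 2 units, of the element that heat shock factors bind. The 250 bases before each start site (RefSeq, GRCm38.p6, minus strand, 5′ to 3′; chr17:34972157-34972406 for Hspa1a and chr17:34959239-34959488 for Hspa1b) were identical at 247 positions, and the capitals mark the match to GAANNTTC, an inverted pair of GAA units, which reads the same on both strands.
Hspa1a: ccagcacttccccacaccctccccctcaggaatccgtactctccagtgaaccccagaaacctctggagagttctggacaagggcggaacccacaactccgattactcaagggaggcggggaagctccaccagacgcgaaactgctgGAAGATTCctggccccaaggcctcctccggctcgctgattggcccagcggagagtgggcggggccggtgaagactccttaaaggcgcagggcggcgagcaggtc
Hspa1b: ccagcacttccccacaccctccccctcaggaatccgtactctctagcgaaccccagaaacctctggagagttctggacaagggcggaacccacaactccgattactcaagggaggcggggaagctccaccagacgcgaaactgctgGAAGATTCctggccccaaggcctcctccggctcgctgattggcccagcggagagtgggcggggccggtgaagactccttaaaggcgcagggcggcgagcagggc
The motif was found in 6.69% of all 32851 promoter windows of that length in the RefSeq table, and in 6 of the 15 genes of the heat shock list that had a window. The windows of Hsph1, Dnajb1 and Hspa5, which also rose over all B cells, held no match. Those of Dnaja1, Hspd1 and Hspe1, which were not called, held a match. A longer form, in which GAANNTTC is followed after a gap of 2 bases by another GAA (searched on both strands), was found in 0.466% of all windows and in 2 of the list's genes, Hspd1 and Hspe1. A match describes letters in the window only.

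Hspa1a stood at 0, 0 and 7.96 CPM (scaled by the trimmed mean of M values, as are all levels in this comparison) in spleen B cells and at 1167, 1926 and 1743 CPM in vascular B cells. In raw terms this was 3 UMIs of 950704 in spleen against 396 of 324513 in vascular B cells, a ratio of 387 with a 95% counting interval of 131 to 1883. The fitted difference was 8.57 on the log2 scale (SE 0.61, adjusted p = 0.000216), and the gene passed in all 6 fits that left out 1 library. Hspa1b followed with 0, 0 and 5.31 against 282, 840 and 441 CPM, or 2 against 119 UMIs (ratio 174, interval 47.2 to 1456), and passed in all 6 such fits too (log2 difference 7.37, SE 0.74, adjusted p = 0.00217). Reads of the near-identical copies may be split between them, so the value of each is uncertain. The signal was spread over cells: 23 of the 56 remaining vascular B cells and 4 of the 7 plasma-like ones had a UMI of Hspa1a, against 3 of 168 remaining spleen B cells. T cells of the same libraries showed the same direction, from 10.3 CPM in spleen to 2109 CPM in vascular tissue, and cells with Siglech, a marker of plasmacytoid dendritic cells, went from 34.8 to 927 CPM. T cell marker genes in the vascular B cells stood at 1.80% to 5.21% of their T cell level, and the part of RNA from other cells in the Hspa1a values was not tested.

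Some other chaperones rose too. Of the 18 genes of the heat shock list, which includes Hspa1a and Hspa1b, 14 were tested. The 5 that rose were this pair, Hsph1, Dnajb1 and Hspa5, against 0.933% of all genes tested, and none fell. The median was 0.70 against 0.01 for all genes. Of the 14, 7 lay above spleen without overlap, Hspa1a and Hspa1b among them, against 8.96% of all genes tested. Dnajb1, the co-chaperone of HSP70, stood at 150, 124 and 183 CPM in spleen and 537, 525 and 484 CPM in vascular B cells (log2 difference 1.75, SE 0.28, adjusted p = 0.0241). Hsph1, its nucleotide exchange factor, stood at 54.6, 36.1 and 53.1 against 169, 175 and 161 CPM (1.86, SE 0.31, adjusted p = 0.0241). Hspa5, the chaperone of the endoplasmic reticulum, stood at 437, 296 and 316 against 1516, 788 and 1851 CPM, with its highest levels in the libraries rich in plasma-like cells. Without those and the germinal-centre-like cells, the Hspa5 difference was 1.11 in place of 2.02 and still passed (adjusted p = 0.0079). In the remaining B cells, 6 of 13 tested heat shock genes rose, Hspa1a and Hspa1b again among them, against 3.17% of all genes tested there. The cytosolic chaperone Hsp90aa1 was now called as well (log2 difference 1.39, adjusted p = 0.00441), and the median was 0.66. Of these 13 genes, 12 lay above spleen without overlap, against 13.5% of all genes tested in the remaining B cells. The mitochondrial chaperonin genes Hspd1 and Hspe1, whose windows held the longer motif, gave 0.25 (adjusted p = 0.694) and 0.41 (adjusted p = 0.321) there and did not pass.

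Further genes that rose over all B cells included regulators of signalling and transcription. Ifrd1, a transcriptional co-regulator, stood at 95.5, 97.9 and 82.3 CPM in spleen and at 593, 578 and 420 CPM in vascular B cells (log2 difference 2.53, SE 0.29, adjusted p = 0.00492). Litaf (chr16:10959275-11066157, minus strand), a protein of the endosomal membrane, stood at 81.9, 36.1 and 45.1 against 612, 525 and 194 CPM (3.22, SE 0.49, adjusted p = 0.0234). Vps37b, a part of the endosomal sorting complex ESCRT-I, stood at 205, 157 and 146 against 706, 805 and 398 CPM. No vascular library overlapped a spleen library in Ifrd1, Litaf or Vps37b, and all 3 genes passed in the remaining B cells as well, at 2.55, 3.32 and 1.96. Crem, a cyclic AMP-responsive transcription factor, stood at 13.6, 7.73 and 26.5 against 169, 123 and 183 CPM (3.23, SE 0.47, adjusted p = 0.0196). Grasp, Dusp4, Skil, Slamf7 and Rabac1 also rose, by between 1.35 and 2.92 on the log2 scale. Neither Crem nor Slamf7 was among the genes called in the remaining B cells. Dusp4 is a phosphatase of MAP kinases, Skil a repressor in TGF-beta signalling and Slamf7 a surface receptor that is abundant on plasma cells. Several of these calls were fragile, because of the 6 fits that left out 1 library Crem passed in 2, Litaf in 3, Ifrd1 in 4 and Dusp4 in 1.

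The 3 genes that fell over all B cells were Tnfrsf13c, Ltb and Dtx1. Tnfrsf13c (chr15:82221743-82224369, minus strand) encodes the BAFF receptor, through which mature B cells receive their main survival signal. It stood at 341, 476 and 441 CPM in spleen and 169, 105 and 129 CPM in vascular B cells (log2 difference -1.62, SE 0.31, adjusted p = 0.0419), and at -1.35 in the remaining B cells (SE 0.29, adjusted p = 0.0129). Every vascular library lay below every spleen library. Tnfrsf13b, which encodes the related receptor TACI, gave 0.02 over all B cells and -1.14 in the remaining ones (adjusted p = 0.0845), and Cd40 gave 0.06, so Tnfrsf13c was the 1 gene called among the 3 tested of the 12 receptors for BAFF, APRIL and CD40 ligand and their partners. Ltb (chr17:35194439-35196320, plus strand), which encodes lymphotoxin beta, a signal that B cells give to the stroma of lymphoid organs, stood at 1323, 1048 and 1136 against 367, 543 and 344 CPM (-1.50, SE 0.27, adjusted p = 0.0295). It fell by 1.28 in the remaining B cells (adjusted p = 0.00256). Dtx1, a target of Notch signalling that marks marginal zone B cells, stood at 164, 157 and 114 against 28.2, 17.5 and 21.5 CPM (-2.55, SE 0.43, adjusted p = 0.0241) and was too low to be tested in the remaining B cells. Of the 6 fits that left out 1 library, Tnfrsf13c and Dtx1 passed in 2 and Ltb in 1.

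Genes of B cell identity and of the receptor pathway were not called over all B cells, where 1.12% of all 1608 genes passed. At that rate, counts of 0 in lists this short do not set these genes apart. Of 23 B lineage genes tested, 0 rose and 0 fell in edgeR's test, with a median of -0.32 and 20 of the 23 values negative. Of the 23, 5 lay below spleen without overlap, against 9.27% of all genes tested. Of 18 receptor signalling genes tested, again 0 passed, the median was -0.36 and 17 of 18 values were negative. The plasma-like cells, of which 1 of 7 had a UMI of Ms4a1, are part of these vascular sums. In the remaining B cells, where 4.36% of all genes tested passed, the medians were -0.13 and -0.19, with 10 of 22 and 5 of 15 values positive. Only Ly6d passed in edgeR's test, a surface antigen of the B lineage. It stood at 2435, 2625 and 3398 CPM in spleen and 1471, 1664 and 1168 CPM in vascular cells (-0.97, adjusted p = 0.00706). Pax5 gave 0.03 (adjusted p = 0.983), Syk 0.03 (adjusted p = 0.965) and Fcer2a -0.04 (adjusted p = 0.955). For these a difference was not detected at this depth.

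In the remaining B cells, 3 of 13 tested MHC class II genes rose in vascular libraries, against 3.17% of all genes tested there. None fell, and 4 of 13 values were negative. Of the 13 genes, 5 lay above spleen without overlap and 1 below, against 13.5% and 10.9% of all genes tested. H2-Aa (chr17:34282744-34287823, minus strand), the class II alpha chain, stood at 6214, 6514 and 6895 CPM in spleen and 9782, 9916 and 8289 CPM in vascular cells, a log2 difference of 0.51 (SE 0.10, adjusted p = 0.00769). H2-Eb1, a class II beta chain, rose by 0.56 (adjusted p = 0.0229), and Cd74, the invariant chain that guards the peptide groove, by 0.33 (adjusted p = 0.0243). H2-Ab1 gave 0.42 and did not pass (adjusted p = 0.0937). The median of the 13 genes was 0.30. Over all B cells, none of 14 class II genes passed and the median was 0.22. MHC class I genes gave 0 calls of 15 in either fit, with medians of 0.22 over all and -0.01 in the remaining B cells. Of all genes tested, 1.12% passed over all B cells and 4.36% in the remaining ones.

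Activation genes rose in part. Cd83, a membrane protein that appears on activated B cells and stabilises class II at the surface, stood at 487, 575 and 400 CPM in the remaining spleen B cells and at 1428, 1452 and 1004 CPM in the vascular ones (log2 difference 1.42, SE 0.23, adjusted p = 0.00256). Rel, the NF-kB subunit c-Rel, stood at 336, 290 and 231 against 871, 602 and 771 CPM (1.45, adjusted p = 0.00256). Nr4a1, an orphan nuclear receptor induced by antigen receptor signalling, stood at 537, 465 and 589 against 2328, 992 and 1354 CPM (1.57, SE 0.28, adjusted p = 0.0048), and the antiproliferative gene Btg2 rose by 1.45 (adjusted p = 0.00575). None of the vascular libraries overlapped a spleen library in these 4 genes. Cd69, an early activation antigen, gave 0.38 (adjusted p = 0.43) and Myc 0.10 (adjusted p = 0.829). Over all B cells, Slamf7 was the only 1 of 10 tested costimulation and activation genes that passed, though all 10 values were positive with a median of 0.91, and 0 of 8 NF-kB genes passed (median 0.50). Of all genes tested in that fit, 1.12% passed.

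Of the AP-1 genes, Fosb fell in the remaining B cells. It stood at 218, 229 and 157 CPM in spleen and 71.4, 88.5 and 23.4 CPM in vascular cells (-1.59, SE 0.42, adjusted p = 0.0497). Fos gave -0.75 (adjusted p = 0.0845), Jun -0.10 (adjusted p = 0.866) and Egr1 0.19 (adjusted p = 0.742). Of 16 immediate early genes tested there, 2 rose (Btg2 and Nr4a1) and 1 fell (Fosb), with a median of -0.02. Of all genes tested there, 3.17% rose and 1.19% fell. Over all B cells the median of 19 such genes was 0.50 and Crem was the 1 that passed. Fos then stood at 2391 and 2152 CPM in vascular libraries 1 and 3, which hold the plasma-like cells, and at 876 CPM in vascular library 2.

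Genes of follicular position and homing gave few calls. Klf2 (chr8:72319033-72321656, plus strand), a transcription factor that maintains recirculation of resting lymphocytes, stood at 3174, 2731 and 3517 CPM in the remaining spleen B cells and at 1385, 1204 and 1658 CPM in the vascular ones (-1.16, SE 0.17, adjusted p = 0.00114). S1pr1, the egress receptor, gave -0.20 (adjusted p = 0.734) and Ccr7, the receptor for T zone chemokines, 0.57 (adjusted p = 0.151). Satb1, a chromatin organiser, rose by 1.57 (adjusted p = 0.028) from 117.6, 68.6 and 86.5 to 357, 177 and 163 CPM. Of 7 homing genes tested over all B cells, none passed, against 1.12% of all genes tested. Irf7, a factor of the interferon pathway, rose by 1.30 in the remaining B cells (adjusted p = 0.029), the 1 gene called among 6 interferon genes tested, whose median was 0.26. Further genes called in the remaining B cells were Gch1 (2.02), Rasgef1b (1.66) and Slc38a2 (1.62), which rose, and Gpx1 (-1.21), Arpc5l (-1.16), Ptprcap (-0.86) and Cd52 (-0.66), which fell.

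**Figure D4:**
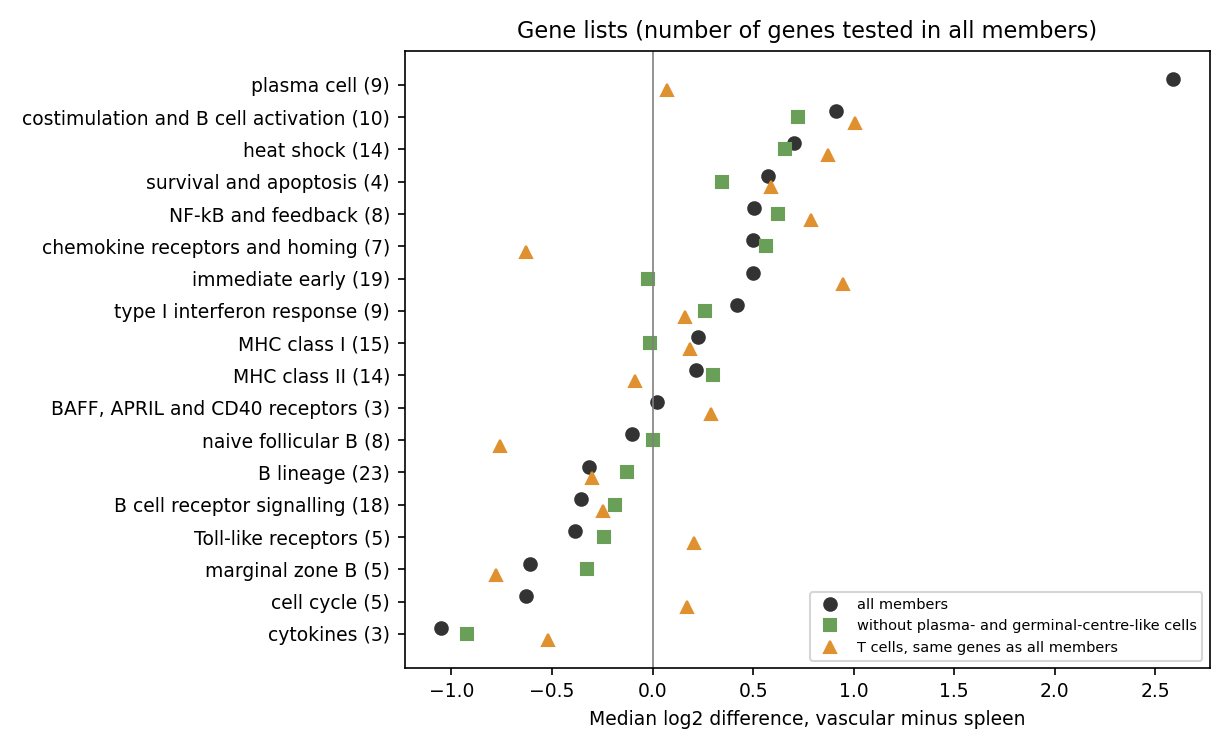
Median log2 difference between vascular and spleen libraries for each gene list (rows, with the number of genes tested), for all B cells (circles), for B cells without the plasma-like and germinal-centre-like cells (squares, lists with at least 3 tested genes) and for T cells over the same genes (triangles). The plasma cell list stands at 2.59 over all B cells, and the heat shock list at 0.70 and 0.66 in the 2 B cell fits.

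The remaining lists had few testable genes, and of all genes tested over all B cells 1.12% passed. Of 9 plasma cell genes tested over all B cells none passed, with a median of 2.59. Without the plasma-like and germinal-centre-like cells only 2 of them were deep enough to test, so that median has no counterpart there. Xbp1 gave 2.79 (adjusted p = 0.21) and Jchain 2.83 (adjusted p = 0.42) and the levels overlapped, with no Jchain UMI in vascular library 2. Of the cell cycle list 5 genes were tested and 0 passed (median -0.63), and of 4 survival genes 0 passed. Of 5 Toll-like receptor pathway genes tested, 0 passed over all B cells, with a median of -0.39, and Irf7 passed in the remaining ones. The B1, transitional, memory and germinal centre lists had at most 2 genes each that were deep enough to test, so these B cell types were not distinguishable by the fit. Anxa2, a membrane-binding protein, had 171 UMIs in spleen and 3 in vascular B cells, a ratio of 19.5 (interval 6.55 to 95.3), and failed the filter on low counts.

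The share of B cells with a UMI was compared after each cell had been thinned to 1000 UMIs, a depth at which no B cell had to be left out. Hspa1a was then seen in 0% of B cells in each spleen library and in 28.6%, 31.6% and 37.5% of the vascular ones, and in 0.65% and 45.2% of T cells thinned likewise. Before thinning the values were 0%, 0% and 3.57% against 39.3%, 36.8% and 56.3%. Cd83 was seen in 30%, 30.7% and 26.2% of spleen B cells and in 57.1%, 68.4% and 43.8% of vascular B cells, with T cells at 1.52% and 3.15%. Its means were 29.0% ± 2.42 and 56.4% ± 12.4 (SD, n = 3 each; exact permutation p = 0.1, the smallest possible), and 59.3% and 82.2% before thinning. Cd86, a costimulatory ligand, gave 6.70% against 16.5% without overlap, but 25.8% against 28.0% with overlap before thinning. Of the 14 genes compared in this way, 4 did not overlap between the tissues (Hspa1a, Cd83, Cd86 and Mki67), and Mki67, at 2.44% against 0%, overlapped at 2000 UMIs. At that depth Hspa1a and Cd83 alone still separated the tissues. With Benjamini-Hochberg adjustment over the 14 genes, the exact permutation test gave an adjusted p of 0.35 for each of the 4 at 1000 UMIs. For Hspa1a and Cd83 at 2000 UMIs it gave 0.7, so no share passed.

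B cells and T cells of the same libraries differed in how some genes changed with tissue. A class by tissue interaction in edgeR, with the library as a block, called 24 of 1608 genes (1.49%), 2 with a higher (0.124%) and 22 with a lower difference (1.37%) in B cells. Serpinb1a, a protease inhibitor, gave -0.13 in B cells and 3.82 in T cells, a difference of -3.99 (SE 0.46, adjusted p = 0.00425). Bhlhe40, a transcription factor of activated lymphocytes, gave -0.38 and 2.98 (difference -3.61, adjusted p = 0.00425), and Plac8 gave -0.94 and 2.57 (difference -3.46, adjusted p = 0.00425). Atf3, a stress-induced transcription factor, gave -1.19 and 2.73 (difference -4.03, adjusted p = 0.0251), and Rgs1, which dampens chemokine receptor signals, -1.03 and 2.55 (difference -3.43, adjusted p = 0.0309). In all 5 genes T cells were higher in vascular tissue while the fitted B cell difference was negative, and none of the 5 B cell differences passed over all B cells. Tnfrsf13c also differed (-1.96, adjusted p = 0.0251), though T cells hold only 1.34 to 1.65 CPM of it. Hspa1a rose in both classes, and its difference of 0.99 did not pass (SE 0.79, adjusted p = 0.537). Leaving out vascular library 2 gave 166 interaction calls and leaving out vascular library 3 gave 76, whereas without vascular library 1, spleen library 2 or spleen library 3 they were 3, 6 and 3.

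In the remaining B cells the same interaction, added after the data had been seen, called 148 genes (9.20%), 58 higher (3.61%) and 90 lower (5.60%). Homing genes were among those higher: Cxcr5, the follicle homing receptor, differed by 2.42 (adjusted p = 0.000578) and Ccr7 by 1.23 (adjusted p = 0.0017). T cells had lower levels of both in vascular tissue, at 22.2 and 8.64 CPM for Cxcr5 and 642 and 416 CPM for Ccr7. H2-Eb2, Fcmr, H2-Ob and Syk differed by between 1.84 and 2.68, and of these H2-Eb2, Fcmr and Syk stood at no more than 1.32 CPM in T cells. H2-Aa differed by 0.50 (adjusted p = 0.0064). Fosb (-2.89) and Fos (-1.31) differed in the other direction, as did Prr5, Ly6c2, Atf3, Serpinb1a, Bhlhe40 and Plac8, by -3.52 to -4.07.

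**Figure D5:**
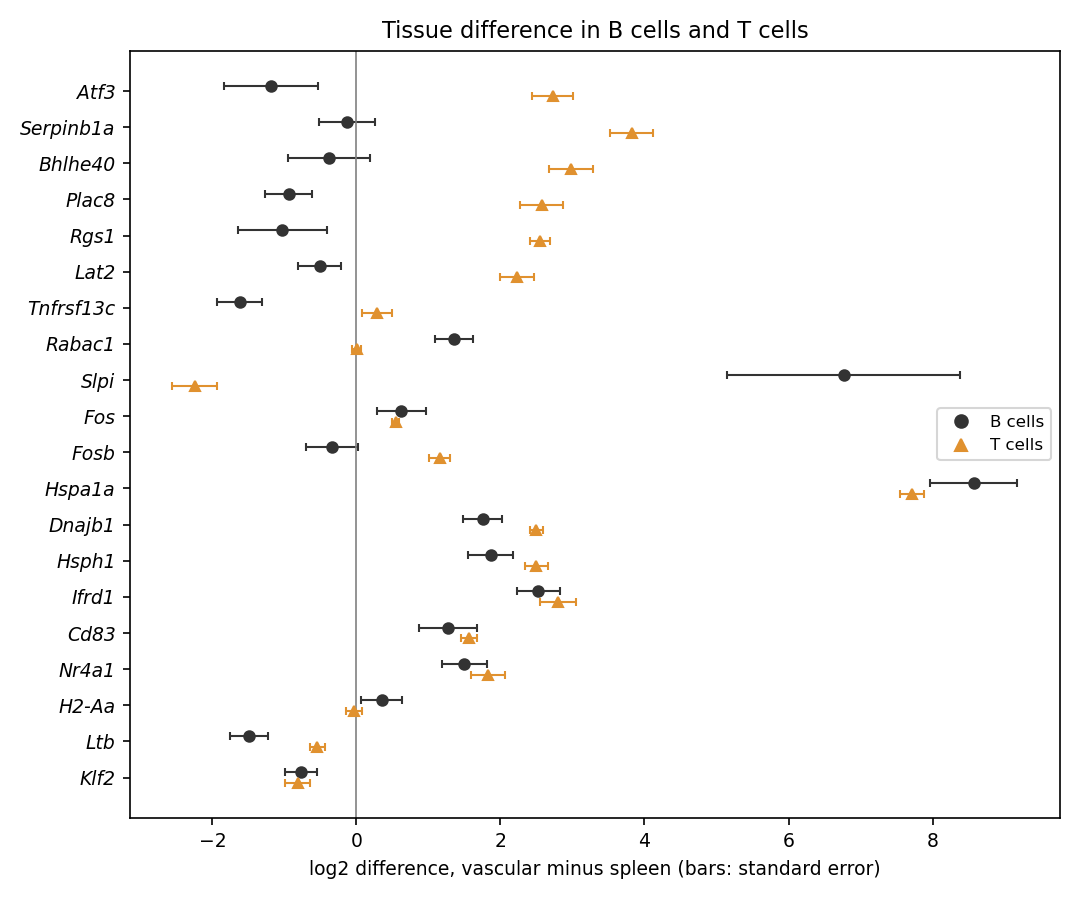
Log2 difference between vascular and spleen libraries (x axis, bars give the standard error) in all B cells (circles) and in T cells (triangles) for selected genes. Hspa1a is far to the right in both classes, at 8.57 in B cells and 7.71 in T cells, while Serpinb1a, Bhlhe40, Plac8 and Atf3 are to the right in T cells and at or left of 0 in B cells.

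Against the 1292 cells with Siglech, the second class besides T cells that passed the sort, no tissue difference of the B cells passed in edgeR's interaction test (0 of 1608 genes, 0%; 203 at an unadjusted p under 0.05, and 0 with the other scaling tried). Without vascular library 2 the count was 118, and without vascular library 1 or 3 it was 1 each. In the remaining B cells 41 genes passed (2.55%), 23 higher (1.43%) and 18 lower (1.12%). The fitted rise of Hspa1a was larger in B cells by 3.70 (SE 0.77, adjusted p = 0.0039), Litaf by 3.06 and the survival gene Bcl2a1b by 2.73. Bhlhe40 (-2.04), the NF-kB inhibitor Tnfaip3 (-1.94) and Tnfrsf13c (-1.73) differed in the other direction, and so did Id3 (-2.28), an inhibitor of E proteins. For Hspa1a the remaining B cells held 3 UMIs in spleen and 343 in vascular tissue. The size of its difference therefore depends on a spleen count near 0.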

How the data were processed

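Cells had been sorted as CD4+ T cells, and 5′ single-cell libraries were aligned and counted with Cell Ranger 2.2.0 and STAR 2.5.1b on mm10, per the submitters' processing notes, which also name FastQC 0.11.8 and Seurat. The deposited files hold raw UMI counts per gene and cell, 1 matrix per library. Groups were taken from the labels. The members and gene lists were chosen with earlier results of these data known. UMI counts were summed over the B cells of each library (at least 10 cells) and fitted with edgeR 4.0.16 (quasi-likelihood test, trimmed mean of M values scaling, filterByExpr, Benjamini-Hochberg adjustment, threshold 0.05) in R 4.3.3, and the 5 genes of the rule were left out of all counts of calls. Interactions were fitted with the library as a block. Over all B cells the text names up to 12 genes with the largest rise or fall that passed, did not overlap and reached 100 CPM, 6 per direction for interactions, and genes of the lists; UMI counts of single subsets were picked after seeing them. The fits were tested on simulated data. Shares were compared by exact permutation, and binomial intervals cover counting error only. Doublets, scored against simulated pairs of cells, were kept (2 of 255 members were marked) and removed in an alternative. Replicates of a tissue differed by more than counting noise. Immunoglobulin and T cell receptor constant genes were not found under their symbols and are not analysed here, and values of some genes are not reported here. Promoters and gene positions came from RefSeq and GENCODE tables of GRCm38. Alternatives were DESeq2 1.42.0, other scaling, filters, cell rules and leaving out each library; fits without plasma-like or germinal-centre-like cells, or with all cells thinned, were added after seeing the data.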

Additional observations from a re-analysis of the deposited data

Results flagged for a closer look

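The tissue difference in B cells was tested against that in T cells of the same libraries, and 24 genes differed between the classes in edgeR's interaction test with Benjamini-Hochberg adjustment (3 libraries per tissue). Every value that follows is the log2 difference between vascular and spleen B cells minus the same difference in T cells. It was positive for Slpi at 8.62 (SE 1.60, adjusted p = 0.0384) and for Rabac1 at 1.34 (adjusted p = 0.0446). The Slpi value turned to -6.90 (adjusted p = 0.806) without the plasma-like and germinal-centre-like cells. The B cells left there held 3 UMIs of Slpi in spleen and 0 in vascular tissue, too few to give a direction. The difference was negative for Atf3 at -4.03, Serpinb1a at -3.99, Bhlhe40 at -3.61, Plac8 at -3.46, Rgs1 at -3.43 and Lat2 at -2.77. In Bhlhe40 the levels were 164, 106 and 53.1 CPM in spleen and 113, 52.5 and 32.3 CPM in vascular B cells, while T cells went from 83.9 to 658 CPM. With 3 libraries per tissue, single outlying libraries were not tested for.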

How the results depend on the processing

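The lower B cell share in vascular libraries held under each alternative run, with differences of -0.450 to -0.607 percentage points against -0.575. The T cell gene level in B cells kept its direction (-0.750 to -2.79 percentage points against -1.49).

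For the 18 genes called over all B cells, counts were 19 with DESeq2-type size factors in edgeR, 27 with DESeq2, 213 without the filter on low counts, 13 with the stricter cell filter, 15 with the stricter B cell rule, 57 without marked doublets, 56 with members free of 7 T cell genes, 114 with at least 20 members per library (which leaves 1 vascular library), and 2 to 222 when 1 library was left out. The alternatives chosen after seeing the data gave 64 without plasma-like cells, 44 without plasma-like and germinal-centre-like cells and 8 with all members thinned. For the 24 genes that differed between B and T cells, 157 passed with members free of T cell genes, 148 without plasma-like and germinal-centre-like cells and 3 to 166 when 1 library was left out. Against cells with Siglech the count was 0, then 41 without the same cells and 0 to 118 when 1 library was left out. The cause was not tested. No gene called over all B cells and recomputed under the alternatives changed sign (Rabac1 was recomputed only with 1 library left out), but uncalled genes of the lists did, such as Hspd1, at -0.14 over all and 0.25 in the remaining B cells, and Tnfrsf13b, at 0.02 and -1.14. Slpi, at 8.62 against T cells, turned to -6.86 with members free of T cell genes and to -6.90 without plasma-like and germinal-centre-like cells. In the latter fit the B cells held 3 Slpi UMIs in spleen and 0 in vascular tissue, too few to give a direction.

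Whether equal replicate numbers pair the libraries is not stated in the labels and could not be settled here. Deviations of equally numbered libraries correlated at 0.127, 0.184 and -0.108 across 1611 genes, which are not independent. Unequally numbered pairs ranged from -0.221 to 0.184, so these values cannot decide it. With the replicate block 3 genes were called in place of 18.

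Of 14 thinned shares, those without overlap numbered 4, then 2 at 2000 UMIs, 3 without thinning and 4 to 7 when 1 library was left out. The vascular minus spleen difference changed sign for Cr2 (0.753 percentage points; -0.469 at 2000 UMIs, -6.46 without thinning and, leaving out 1 library, -4.63 to 4.11), H2-Aa (-3.56, with -9.51 to 2.99 leaving out 1 library), Myc (2.18, with -0.708 to 4.202), Jchain (5.17, with -1.38 to 11.1) and Mki67 (-2.44; 1.72 at 2000 UMIs). The 63 vascular B cells limit precision throughout.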
